A study of Homo sapiens with 26 samples.

Results

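Tumors that had been under a CDK4 inhibitor for 84 to 91 days were compared with tumors in their first 3 days of the same dose, across all genes. The comparison took 8 of the 13 mice of the study, 5 labelled resistant (9-3, 9-6, 9-7, 9-8 and 9-9) and 3 labelled sensitive (6-4, 6-5 and 6-6), and 16 of its 26 RNA sequencing libraries. All were female NSG mice, which lack a working adaptive immune system, and carried ZR751 cells under the skin. ZR751 is an established human breast cancer line with the estrogen receptor and without HER2 amplification. From a mean tumor volume of 150 mm3 on, both groups got 60 mg/kg of oral atirmociclib (PF-07220060) per dose, with 2 doses each day given 7 hours apart. Sensitive tumors were taken after 3 days, 3 hours after the last dose. Resistant tumors came from a separate study, and their treatment time label reads 2040 hours against 72 hours. Another 5 mice given vehicle for 3 days (treatment label DMSO) gave reference levels. No vehicle mice of the longer study are among these samples, so treatment length, study and resistance cannot be told apart.

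CDK4, with cyclin D1, phosphorylates the retinoblastoma protein, which otherwise holds back the E2F factors and the genes of DNA replication. In luminal breast cancer the estrogen receptor drives cyclin D1, and blocking CDK4 stops cells before S phase. The genes of mitosis are switched on later in the cycle by MYBL2 and FOXM1, which act on promoters with a CHR element.

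Levels are TPM, a gene's share of all transcripts scaled to a fixed total, averaged over the 2 libraries of a mouse. The depth of the libraries is unknown, since the values are not counts. Across 14079 tested genes, Spearman's rho between mice was 0.986 to 0.993 within the sensitive group, 0.979 to 0.989 within the resistant group and 0.955 to 0.977 between them. These are descriptions across genes, which are not independent replicates. Bulk tumor RNA cannot tell fewer cells of a type from less RNA per cell. The 10 luminal breast markers summed to 10075 to 13640 TPM in sensitive and 22171 to 27248 TPM in resistant mice. Of these markers 4 rose (40%, against 9.56% of all genes), 0 fell and 6 were not called. Their median log2 change was 0.05 and the largest 2.00, that of TFF1, so most members did not share the rise of the sum. The endothelial list summed to at most 1.14 TPM and the skeletal muscle list to at most 1.24 TPM in any of the 8 mice, and none of their members was tested. Fibroblast markers summed to 5.76 to 8.36 TPM in sensitive and 4.58 to 10.5 TPM in resistant mice, lymphocyte markers to 3.11 to 4.19 and 2.26 to 3.33 TPM, and macrophage markers to 7.61 to 10.5 and 10.5 to 17.3 TPM. Of 6 tested macrophage markers 2 rose (1 without mouse 6-4, 6-5 or 9-6) and 1 fell (0 without 6-4, 6-6 or vehicle mouse 1-4). Those shares were 33.3% and 16.7%, against 9.56% and 11.6% of all genes, with a median change of 0.40. The fall was CSF1R, the receptor that macrophages need to survive, which had 0.975 to 1.66 TPM in sensitive and at most 0.2 TPM in resistant mice. No resistant mouse reached the 1 TPM of the filter, and CSF1R was tested in 21 of 26 alternative settings. Host cells are mouse cells, the lists name human genes, and the handling of mouse reads is unknown. These marker levels therefore do not measure host cell content. The part of other cell types in the results was not tested.

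Of the 14079 genes, 1346 (9.56%) were higher and 1631 (11.6%) lower in resistant tumors at an adjusted p under 0.05, 21.1% in either direction. For 30.4% of genes every mouse of one group lay above every mouse of the other. The median log2 change of all genes was -0.05. The counts depended on single sensitive mice: they were 890 and 690 without mouse 6-4 and 675 and 799 without mouse 6-5. With median-of-ratios scaling 1726 genes were higher and 1344 lower, which took the share of higher calls from 45.2% to 56.2%. Genes with large changes included FOSB, RAB31 and CLIC6 on the higher side and CES1, KRT79 and AWAT2 on the lower side, as the plot of every tested gene shows.

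**Figure D1:**
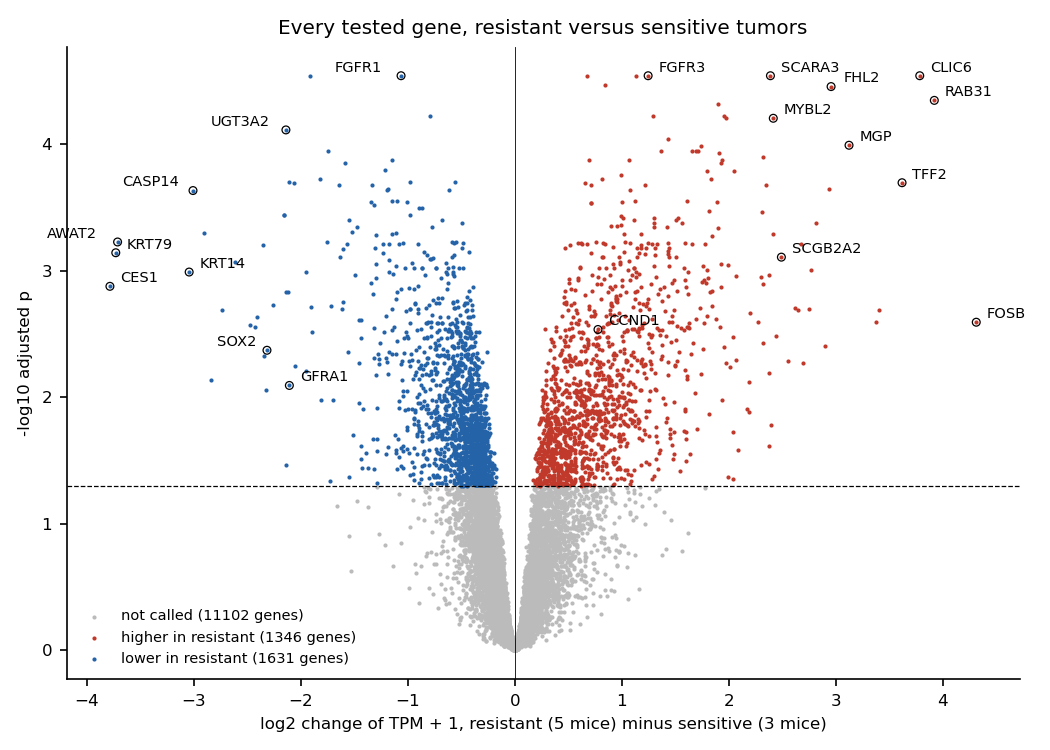
Each point is 1 of 14079 tested genes; the x axis is the log2 change of TPM + 1 (resistant, 5 mice, minus sensitive, 3 mice) and the y axis is -log10 of limma's adjusted p, with the dashed line at 0.05. Red points (1346) were higher and blue points (1631) lower in resistant tumors; circled genes are named, from CES1 at -3.79 to FOSB at 4.31.

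CLIC6, a chloride channel protein, had 0.275, 0.485 and 0.640 TPM in sensitive mice 6-4, 6-5 and 6-6 and 14.9, 31.1, 15.4, 10.6 and 32.9 TPM in resistant mice 9-3, 9-6, 9-7, 9-8 and 9-9, and values keep this order of mice from here on. It rose by 3.79 ± 0.29 on the log2 scale (SE, adjusted p = 2.87e-05), and vehicle mice had 0.355 to 0.655 TPM. No sensitive or vehicle mouse reached the 1 TPM of the filter, so CLIC6 was tested only through its resistant levels. MGP, the matrix Gla protein that inhibits calcification, had 160, 242 and 390 TPM against 2055, 2279, 3567, 1914 and 1477 TPM, a rise of 3.12 ± 0.32 (adjusted p = 1.02e-04). In neither gene did the groups come near each other, which the rule for naming genes favoured. UGT3A2, a glycosyltransferase, fell with little spread in either group: 5.82, 5.55 and 5.30 TPM went to 0.655, 0.335, 0.335, 0.860 and 0.345 TPM (-2.14 ± 0.21, adjusted p = 7.69e-05). All resistant mice were below the 1 TPM of the filter in UGT3A2.

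The drug's own target did not pass the test. CDK4 had 267, 248 and 275 TPM in sensitive and 261, 259, 258, 239 and 258 TPM in resistant mice without a call (-0.05 ± 0.07 on the log2 scale, adjusted p = 0.671, or 0.01 with median-of-ratios scaling). Its close relative CDK6 reached at most 0.395 TPM, in mouse 9-3, and was not tested. RB1, the retinoblastoma gene, had 26, 21.1 and 21.9 TPM against 25, 23, 23.9, 18.6 and 23.9 TPM and was not called (adjusted p = 0.961). The groups overlapped in CDK4 and RB1, and the sign of RB1's change of -0.01 ± 0.10 turned in 6 of the 26 alternatives.

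CCND1, the gene of cyclin D1, was higher in every resistant mouse. It had 361, 450 and 449 TPM against 901, 543, 705, 715 and 771 TPM, with vehicle mice at 222 to 301 TPM, and rose by 0.78 ± 0.14 (adjusted p = 0.00291). CDK2, the kinase that acts with cyclin E, had 20.2, 15.3 and 19.2 TPM against 28.0, 29.6, 28.4, 21.0 and 26.8 TPM, all below the vehicle range of 32.6 to 36.8 TPM. E2F1 had 24.7, 8.45 and 21.6 TPM against 57.1, 70.9, 85.2, 28.6 and 41.2 TPM (1.61 ± 0.35, adjusted p = 0.00681). Mouse 6-5 was lowest of the sensitive and mouse 9-8 of the resistant mice in both CDK2 and E2F1, and neither gene's groups overlapped. SKP2, the ubiquitin ligase subunit that targets p27, went the other way, from 14 to 17.3 TPM down to 7.86 to 11.5 TPM. Of 37 tested genes in the CDK, cyclin D and RB list, 9 rose and 4 fell. Those shares were 24.3% and 10.8%, against 9.56% and 11.6% of all genes, so the share that fell was near that of all genes. Without mouse 6-5 3 rose, without 6-6, 9-3, 9-6 or 9-7 5 rose, without 6-4 or 9-6 1 fell and without 9-9 2 fell.

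Genes of mitosis rose as a group. Of 58, 52 rose and 1 fell (89.7% higher, against 9.56% of all genes), with a median change of 1.15, and the groups did not overlap in 47 (30.4% of all genes). By role, 14 of 15 kinases and cyclins, 5 of 5 transcription and topology factors, 9 of 10 anaphase genes and 24 of 28 kinetochore and spindle genes rose. MYBL2, the B-MYB factor of the complex that activates mitotic genes, had 25.4, 20.8 and 37.9 TPM against 213, 180, 138, 90.9 and 155 TPM (2.42 ± 0.23, adjusted p = 6.22e-05). Vehicle mice had 162 to 236 TPM, a range that resistant mice 9-3 and 9-6 reached and the other three did not. FOXM1, the partner factor, had 14, 6.47 and 13.2 TPM against 49.5, 36.8, 53.9, 19.4 and 28.0 TPM, and vehicle mice had 114 to 168 TPM.

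In 56 of the 58 genes every resistant mouse stayed below every vehicle mouse. The share of all tested genes with this order was not computed. PLK1, the polo kinase of mitotic entry, had 2.06, 1.91 and 3.50 TPM against 9.46, 9.09, 11.7, 7.21 and 6.79 TPM, a rise of 1.51 ± 0.20 (adjusted p = 3.98e-04), while vehicle mice had 54.8 to 93.6 TPM. CCNB2, cyclin B2, named after its values were seen, had 3.73, 3.04 and 5.78 TPM against 11.2, 12.3, 17.0, 7.66 and 10.0 TPM, with vehicle at 38.9 to 69.2 TPM. MKI67, the proliferation marker Ki-67, had 1.13, 0.970 and 1.99 TPM against 8.47, 7.69, 8.91, 2.36 and 3.79 TPM (1.52 ± 0.31, adjusted p = 0.00515), with vehicle at 36.2 to 58.2 TPM. AURKA, the spindle pole kinase, had 10.8 to 12.5 TPM against 17.3 to 20.7 TPM. In all 4 genes every resistant mouse lay above every sensitive and below every vehicle mouse. The exception in the list was CCNF, cyclin F, which falls outside the naming rule and was named after its values were seen. It had 19.1, 15.2 and 14.9 TPM against 12.2, 8.70, 10.8, 10.8 and 10.7 TPM and fell by 0.58 (SE 0.13, adjusted p = 0.00767).

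The promoters of mitotic genes are shown because so many of these genes moved together. RefSeq promoters (GRCh38.p14, 250 bases before to 50 after the start) were found for 50 of the 58 genes. The CHR element was searched as TTTGAA and the CCAAT box as CCAAT, on both strands. The CHR letters stood in 36 of 50 (72.0%) and in 32 of the 44 that rose (72.7%), against 9.40% of 10610 promoters of tested genes and 15.4% of all 27305. CCAAT stood in 38 of 50 (76.0%), against 36.6% and 35.7%. The letters of these motifs do not overlap in the 2 promoters printed, the 250 bases before the start of PLK1 (chr16:23678639-23678888, plus strand) and CCNB2 (chr15:59104896-59105145, plus strand), with both motifs in capitals. In each the CHR letters begin 29 bases before the start; CCNB2 has 4 CCAAT boxes and PLK1 has 1. A match describes letters and does not show that a factor binds there.
PLK1: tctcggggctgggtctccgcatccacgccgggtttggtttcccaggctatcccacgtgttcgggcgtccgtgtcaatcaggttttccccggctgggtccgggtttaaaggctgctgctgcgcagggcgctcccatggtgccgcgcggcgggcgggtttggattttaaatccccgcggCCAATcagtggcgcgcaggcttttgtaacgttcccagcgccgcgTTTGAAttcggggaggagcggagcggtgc
CCNB2: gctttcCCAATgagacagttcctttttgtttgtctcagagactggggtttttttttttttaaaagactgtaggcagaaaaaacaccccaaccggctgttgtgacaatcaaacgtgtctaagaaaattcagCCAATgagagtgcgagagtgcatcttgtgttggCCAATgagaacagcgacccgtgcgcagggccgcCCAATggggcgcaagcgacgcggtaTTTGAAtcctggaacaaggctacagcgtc

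In the DNA replication list, 26 of 40 genes rose (65%, against 9.56% of all genes) and none fell, with a median of 0.70. These were 8 of 12 licensing genes, 12 of 20 fork genes and 6 of 8 genes of nucleotide supply. This count rested on mouse 6-5, without which 9 rose. CDC45, a subunit of the replicative helicase, had 13.1, 4.74 and 12.5 TPM against 40.4, 38.0, 39.9, 13.9 and 28.1 TPM, within or above the vehicle range of 26.1 to 38.9 TPM in every resistant mouse but 9-8. LIG1, which joins Okazaki fragments, had 19.5, 16.9 and 20.2 TPM against 42.8, 40.6, 45.3, 27.5 and 38.2 TPM (0.99 ± 0.13, adjusted p = 4.32e-04), with vehicle at 29.4 to 34.7 TPM. GINS4, another helicase subunit, had 3.73 to 5.07 TPM against 7.72 to 15.7 TPM, with vehicle at 7.78 to 10.2 TPM. In CDC45, LIG1 and GINS4 all resistant mice but 9-8 reached or passed the vehicle range. By contrast, in 18 of the 40 genes every resistant mouse stayed below every vehicle mouse. The share of all tested genes below vehicle in this way was not computed.

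RRM2, the ribonucleotide reductase subunit made in S phase, had 4.10, 1.08 and 5.24 TPM against 31.0, 21.4, 23.4, 6.81 and 9.24 TPM, below the vehicle range of 60.3 to 82.4 TPM. The mean log2 level of the 40 genes was 3.98, 3.48 and 3.95 in sensitive and 4.76, 4.87, 4.90, 3.96 and 4.40 in resistant mice. Mouse 9-8 was thus level with sensitive mouse 6-4, while the mitosis score of 9-8 (2.84) was above the 2.34, 1.96 and 2.50 of the sensitive mice. Of 25 DNA repair genes 14 rose (56%, against 9.56% of all genes) and none fell, but 4 rose without mouse 6-5. FANCD2, the ubiquitinated hub of the Fanconi anemia pathway, kept its call in every alternative, at 5.64, 4.49 and 5.29 TPM against 16.3, 13.7, 13.4, 6.87 and 11.1 TPM.

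**Figure D2:**
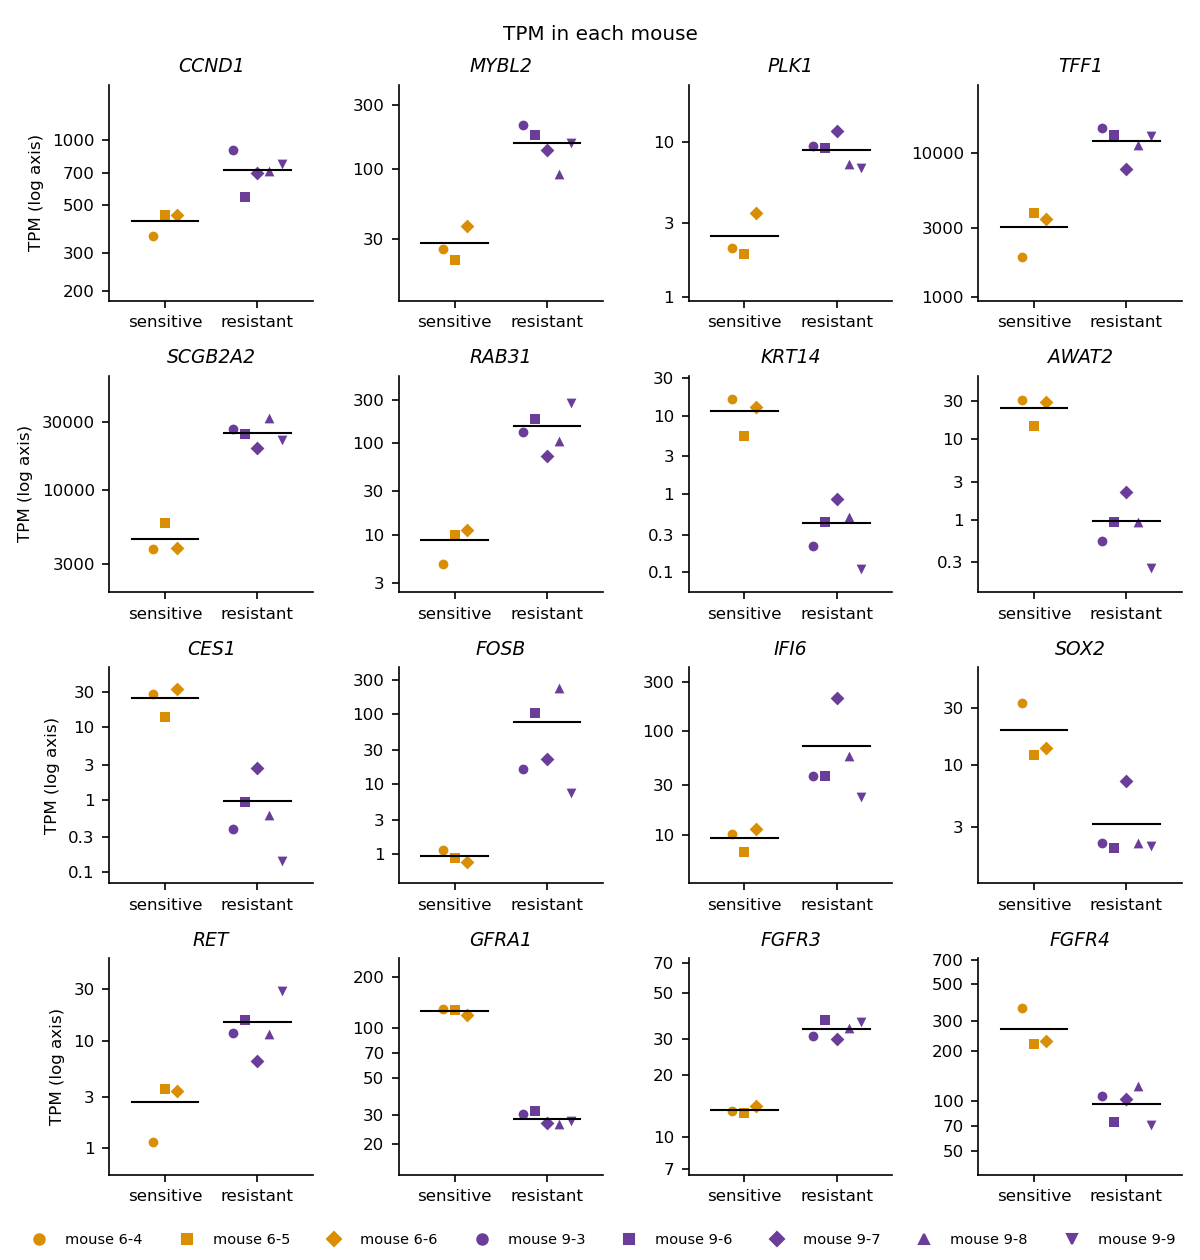
TPM (log axis) of 16 genes in each of 3 sensitive (orange) and 5 resistant (purple) mice; a point is the mean of a mouse's 2 libraries, its shape names the mouse and the line is the group mean. The groups do not overlap in any of the 16 panels, and FOSB spans 7.26 to 231 TPM among the resistant mice. Most named genes were picked by adjusted p or lack of overlap, which favours this separation. Of all genes 30.4% did not overlap.

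Estrogen receptor targets rose in 20 of 36 cases (13 without mouse 6-4) and fell in none, with a median of 1.14. The share that rose was 55.6%, against 9.56% of all genes. Of the 13 secreted or surface products 9 rose (69.2%, median 1.32). Of the 23 intracellular ones 11 rose (47.8%, median 0.78), and 6 did without mouse 6-4. The receptor gene itself, ESR1, was not called, with 134, 96.2 and 81.8 TPM against 92.1, 84.2, 79.9, 107 and 130 TPM. RAB31, a small GTPase of vesicle transport, had the largest change of the list: 4.74, 9.86 and 11.4 TPM in sensitive and 131, 183, 72.3, 105 and 272 TPM in resistant mice, with vehicle at 6.35 to 12.7 TPM. It rose by 3.92 ± 0.36 (adjusted p = 4.49e-05). FHL2, a LIM-domain cofactor, had 1.61, 2.84 and 2.95 TPM against 26.1, 27.8, 15.3, 30.7 and 31.0 TPM (2.96 ± 0.26, adjusted p = 3.49e-05). Mouse 6-4 was lowest of the sensitive and 9-7 lowest of the resistant mice in both genes, without overlap. CA12, a carbonic anhydrase on the cell surface, had 133 to 156 TPM against 253 to 410 TPM, and HSPB8, a small heat shock protein, 11.1 to 27.4 TPM against 48.2 to 57.0 TPM.

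Secreted products of luminal and mucosal epithelium reached high levels in resistant tumors. Among trefoil peptides, secretoglobins and related genes 12 of 16 rose and 1 fell, with a median of 1.76. Those shares were 75% and 6.25%, against 9.56% and 11.6% of all genes. Of 7 mucins 2 rose (28.6%) and 0 fell, with a median of 0.63. The mucin rises were 4 without vehicle mouse 1-5 and 1 without 6-4, 6-5, 9-3, 9-6 or 9-8. SCGB2A2, the gene of mammaglobin, had 3782, 5850 and 3862 TPM in sensitive and 26900, 24706, 19576, 31838 and 22583 TPM in resistant mice (2.49 ± 0.37, adjusted p = 7.79e-04), against 1968 to 8880 TPM in vehicle mice. SCGB1D2, which pairs with mammaglobin, had 638, 1356 and 922 TPM against 5278, 6088, 4933, 6920 and 5459 TPM. MUC1, a transmembrane mucin, had 492, 410 and 543 TPM against 2162, 2159, 2868, 1827 and 3181 TPM (2.32 ± 0.25, adjusted p = 1.26e-04). In these 3 genes all resistant mice also lay above all vehicle mice.

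TFF2, a trefoil peptide of gastric mucus, had 0.650, 1.74 and 2.23 TPM against 27.8, 44.4, 11.4, 27.3 and 53.3 TPM (3.62 ± 0.42, adjusted p = 2.01e-04). AGR3, a protein disulfide isomerase relative, had 40.7, 131 and 114 TPM against 324, 562, 423, 403 and 393 TPM, and its paralog AGR2 940, 1534 and 1594 TPM against 3410, 2992, 3210, 3270 and 2805 TPM. Mouse 6-4 was lowest in each of these genes, below both other sensitive mice. TFF1, the estrogen-induced trefoil peptide, had 1894, 3837 and 3503 TPM against 14888, 13239, 7699, 11264 and 13000 TPM. Its groups did not overlap, but its call (2.00 ± 0.65, adjusted p = 0.0423) was lost in 12 of 26 alternatives, up to an adjusted p of 0.167 without mouse 6-4. Its vehicle mice spread from 139 to 2540 TPM and enter the shared error. The fall was LTF, lactoferrin, named after its values were seen, at 2.40, 4.08 and 5.42 TPM against 1.96, 1.63, 1.05, 1.24 and 0.875 TPM.

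Of 5 tested genes in the receptor role of the Steroid receptors and cofactors list 0 rose and 2 fell, and of 12 cofactors 2 rose and 2 fell. The receptor share was 40% lower and the cofactor shares were 16.7% each way, against 9.56% higher and 11.6% lower of all genes. The cofactor rises were 0 without mouse 6-4 and 1 without 6-5, 6-6, 9-6 or 9-9, and the cofactor falls 1 without 6-4 and 4 without vehicle mouse 1-5. NR3C1, the glucocorticoid receptor, had 11.4 to 13.9 TPM against 7.08 to 8.20 TPM, and NCOA3, a coactivator of the estrogen receptor, 27.5 to 35.6 TPM against 16.7 to 18.3 TPM. Of 12 luminal factors 0 rose and 5 fell (41.7%), and 2 fell without mouse 6-4. Among 8 progenitor and basal genes 3 rose and 3 fell (37.5% each way). SOX2, a stem cell factor, had 33.4, 12.3 and 13.9 TPM against 2.19, 2.03, 7.36, 2.22 and 2.08 TPM (-2.32 ± 0.46, adjusted p = 0.00424). PROM1, the surface protein CD133, had 4.64 to 6.42 TPM against 0.520 to 1.33 TPM. ITGA6, the integrin of hemidesmosomes, rose instead, from 3.02, 5.44 and 5.62 TPM to 20.9, 26.9, 16.4, 15.3 and 23.3 TPM (1.93 ± 0.21, adjusted p = 1.40e-04).

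Keratins moved both ways. In the Keratins list 3 of 5 luminal, 2 of 6 basal and squamous and 1 of 4 sebaceous and hair keratins rose, and 0, 3 and 1 fell. Of the 15 tested, 40% were higher and 26.7% lower, against 9.56% and 11.6% of all genes. The 6 rises were 0 without mouse 6-4, 1 without 9-3 and 2 without 6-5, 9-7 or 9-8. The falls were KRT14, KRT16, KRT17 and KRT79. KRT14, a basal keratin, had 16.2, 5.41 and 13 TPM in sensitive and 0.215, 0.430, 0.850, 0.5 and 0.110 TPM in resistant mice, and vehicle mice 1.08 to 8.49 TPM, above every resistant mouse and overlapping sensitive mouse 6-5; it fell by 3.05 (SE 0.47, adjusted p = 0.00102). KRT16 and KRT17, keratins of stressed epithelium, had 7.18 to 14.2 and 9.15 to 17.9 TPM against 0.415 to 2.10 and 1.25 to 3.77 TPM. KRT79, a keratin of sebaceous ducts, had 37.6, 17.3 and 31.1 TPM against 0.545, 1.75, 2.14, 1.29 and 0.520 TPM (-3.73 ± 0.54, adjusted p = 7.19e-04). Mouse 6-5 was lowest of the sensitive mice in KRT14, KRT16, KRT17 and KRT79, and still above every resistant mouse. The luminal keratin KRT8 had 1774 to 3063 TPM against 3142 to 4611 TPM, but the call (adjusted p = 0.0311) ended in 5 of 26 alternatives, with an adjusted p of at most 0.173, without mouse 6-4.

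Genes of wax ester and acylglycerol synthesis, which mark sebaceous glands, fell in 6 of 8 cases and rose in 0. That is 75.0% lower, against 11.6% of all genes, with a median of -1.66. This list, like the others, was chosen with earlier results of these data known, so its share is not an independent test. AWAT2, which makes wax esters, had 30.8, 14.7 and 28.9 TPM against 0.555, 0.955, 2.21, 0.930 and 0.255 TPM (-3.71 ± 0.52, adjusted p = 5.91e-04), with vehicle at 2.38 to 17.2 TPM. FAR2, the reductase that supplies its fatty alcohol, had 30.0, 13.3 and 19.5 TPM against 5.78, 6.85, 8.58, 4.84 and 4.07 TPM. DGAT2, which makes triacylglycerol, had 61.4, 31.2 and 51.2 TPM against 9.04, 8.15, 11.6, 6.71 and 6.47 TPM (-2.36 ± 0.34, adjusted p = 6.26e-04). Mouse 6-5 was lowest of the sensitive and 9-7 highest of the resistant mice in all 3, without overlap. MOGAT2, SOAT1 and ACSBG1, enzymes of the same branch, fell as well, by 1.71, 1.9 and 1.00 on the log2 scale.

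CES1, a carboxylesterase that also activates prodrugs, was likewise lowest in 6-5 and highest in 9-7 within their groups. It had 28.4, 13.8 and 33.5 TPM against 0.395, 0.925, 2.73, 0.610 and 0.140 TPM and fell by 3.79 (SE 0.61, adjusted p = 0.00132). CRABP1, RBP4 and MGST1 fell too: a retinoic acid carrier, a retinol carrier and a microsomal glutathione transferase. MGST1 had 20.2, 6.91 and 12.2 TPM against 0.555, 1.11, 1.48, 0.735 and 1.02 TPM, and RBP4 was listed at 0 in resistant mice 9-3, 9-8 and 9-9. The wax and acyl ester score was 4.22, 3.52 and 4.00 in sensitive and 2.31, 2.35, 2.69, 2.27 and 2.20 in resistant mice, and 2.86 to 3.73 in vehicle mice. In the Cholesterol synthesis list 5 of 20 enzymes fell (25%, against 11.6% of all genes) and 0 rose, and 1 fell without mouse 6-4.

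Immediate early genes, which cells switch on within minutes of a stimulus, rose in 13 of 30 cases and fell in 0. That is 43.3% higher, against 9.56% of all genes, with a median of 0.76. Their levels varied widely among resistant mice. FOSB, an AP-1 subunit, had 1.15, 0.855 and 0.755 TPM against 16, 102, 22.2, 231 and 7.26 TPM (4.31 ± 0.78, adjusted p = 0.00255). EGR1, a zinc finger factor, had 2.57, 2.77 and 4.5 TPM against 20, 92.5, 19.8, 74.8 and 8.82 TPM (2.90 ± 0.57, adjusted p = 0.00393). ATF3, a stress-induced factor, had 1.62, 2.38 and 3.02 TPM against 12.8, 19.9, 21.8, 62.3 and 4.83 TPM. Mouse 9-9 was lowest of the resistant mice in FOSB, EGR1 and ATF3, and no resistant mouse overlapped a sensitive one. IER3, an early gene with a role in survival, was far more even, at 35.8, 32.5 and 38.8 TPM against 117, 101, 98.7, 127 and 133 TPM. NR4A1, an orphan nuclear receptor, had 14.4 to 17.7 TPM against 20.1 to 372 TPM; its call (adjusted p = 0.0244) was lost without 6-4, 6-5, 6-6 or 9-6 (adjusted p up to 0.0762, the highest of its alternatives, and down to 6.13e-04).

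The EGR1 promoter is shown because serum response elements, to which CArG boxes belong, are its known inputs. The 250 bases before its start (GRCh38.p14, RefSeq, chr5:138465229-138465478, plus strand) hold 2 CArG box matches, in capitals, beginning 105 and 83 bases before the start. The CArG box, searched on both strands, stood in 2 of 22 promoters of tested immediate early genes, 1.04% of those of tested genes and 1.29% of all 27305.
EGR1: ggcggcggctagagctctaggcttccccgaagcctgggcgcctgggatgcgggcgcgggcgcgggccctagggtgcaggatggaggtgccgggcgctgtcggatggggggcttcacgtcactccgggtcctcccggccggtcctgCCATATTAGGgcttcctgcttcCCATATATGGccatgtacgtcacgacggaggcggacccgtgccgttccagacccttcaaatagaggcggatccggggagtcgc

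Of 23 genes in the ERK feedback list 8 rose and 3 fell (34.8% and 13%, against 9.56% and 11.6% of all genes). By role, 3 of 11 inhibitors, 1 of 4 phosphatases and 4 of 8 ETS factors and others rose, and 2, 1 and 0 fell. The 8 rises were 3 without mouse 6-4, 4 without 6-5 and 5 without 6-6, 9-6 or 9-7, and 1 gene fell without 6-4, 6-5, 6-6, 9-3, 9-6 or 9-7. SPRY1, a Sprouty inhibitor, had 3.56, 3.35 and 3.27 TPM against 1.21, 1.04, 1.93, 1.57 and 0.265 TPM and fell by 1.06 (SE 0.22, adjusted p = 0.00545). PHLDA1, a target of the pathway, had 1.75 to 3.29 TPM against 4.13 to 5.26 TPM.

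Growth factor receptors moved both ways, with 4 of 14 FGF, RET, NTRK and EPH system genes higher and 5 lower. Those shares were 28.6% and 35.7%, against 9.56% and 11.6% of all genes. FGFR1 had 136, 171 and 152 TPM against 72.3, 70.8, 81.2, 71.6 and 67.0 TPM (-1.06 ± 0.09, adjusted p = 2.87e-05). FGFR4 had 358, 219 and 227 TPM against 106, 74.2, 103, 123 and 71.7 TPM (-1.47 ± 0.20, adjusted p = 4.54e-04). FGFR3 rose, from 13.5, 13.2 and 14.1 TPM to 31.1, 36.9, 29.9, 34.1 and 36.5 TPM (1.25 ± 0.11, adjusted p = 2.87e-05). For these 3 receptors of the fibroblast growth factors the resistant mice also lay wholly outside the vehicle range, which was 116 to 138, 260 to 381 and 16.1 to 21.6 TPM.

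RET, the receptor kinase of the GDNF family ligands, had 1.14, 3.52 and 3.39 TPM against 11.9, 15.4, 6.5, 11.5 and 29.1 TPM (2.04 ± 0.39, adjusted p = 0.00332). Its ligand gene ARTN, artemin, had 1.18, 1.17 and 2.17 TPM against 7.04, 4.5, 5.16, 7.92 and 9.13 TPM (1.61 ± 0.20, adjusted p = 2.79e-04). GFRA1, the co-receptor that prefers GDNF, had 130, 128 and 118 TPM against 30.3, 31.5, 26.8, 26.3 and 27.4 TPM (-2.11 ± 0.47, adjusted p = 0.00805), with vehicle at 8.82 to 84.1 TPM. RET and ARTN thus rose while GFRA1 fell, without overlap in any of the 3, and GFRA1 in resistant mice lay within the vehicle range. NTRK2, the receptor of BDNF, had 0.135, 0.900 and 1.24 TPM against 3.99, 5.53, 1.75, 2.81 and 7.17 TPM. EPHB3 and EPHB4, ephrin receptors, fell by 1.14 and 0.58. IGF1R, the receptor of insulin-like growth factor 1, had 16.2, 15.2 and 14.7 TPM against 31.3, 34.2, 26, 22 and 35.4 TPM (0.89 ± 0.14, adjusted p = 0.00135). AREG, the EGF receptor ligand amphiregulin, had 3.35, 4.18 and 6.13 TPM against 23.4, 34.3, 30.2, 29.6 and 16.3 TPM, whereas ADAM17, the protease that releases it, had 10.6 to 11.8 TPM against 7.49 to 8.77 TPM.

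Of 29 TGF-beta and BMP genes 5 rose and 8 fell (17.2% and 27.6%, against 9.56% and 11.6% of all genes). However, 4 fell without mouse 6-4 and 3 rose without mouse 6-5. SOSTDC1, a secreted antagonist of BMP and Wnt, had 2.62, 1.43 and 2.88 TPM, and was listed at 0 in resistant mice 9-6, 9-8 and 9-9 and at 0.0900 and 0.1 TPM in 9-3 and 9-7. All resistant mice were thus below the 1 TPM of the filter. BAMBI, a decoy receptor, had 111, 37.2 and 43.4 TPM against 10.6, 10.6, 23.2, 20.9 and 11.4 TPM (-1.89 ± 0.35, adjusted p = 0.00305). FST, the activin antagonist follistatin, had 0.2 to 0.345 TPM against 0.5 to 3.74 TPM, lowest in mouse 9-7. All sensitive mice were below the 1 TPM of the filter in FST. In the Notch list 4 of 16 genes fell (25%) and 0 rose, and 2 fell without mouse 6-5. NOTCH3 had 47.6, 39.7 and 43.8 TPM against 27.1, 21.8, 35.7, 25.7 and 22.3 TPM, and the Notch target NRARP 9.99, 8.38 and 10.1 TPM against 4.71, 3.77, 4.88, 3.87 and 3.89 TPM (-1.01 ± 0.13, adjusted p = 2.84e-04). LEF1, a DNA-binding factor of the Wnt pathway, had 3.73, 4.74 and 3.24 TPM against 24.1, 55.2, 34.1, 28.9 and 29.5 TPM (2.81 ± 0.37, adjusted p = 4.17e-04). In the Wnt list of 17 tested genes it was the rise (5.88%) and 4 fell (23.5%). Of the falls 0 stayed without mouse 6-4 and 2 without 6-6, and a further gene rose without 6-5.

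Interferon-induced genes rose in 11 of 31 cases and fell in 0 (35.5% higher, against 9.56% of all genes), with a median of 0.53. The count of the Interferon response list was 6, 5 and 7 without mice 6-4, 6-5 and 6-6. IFI6, a membrane protein induced by type I interferon, had 10.1, 6.83 and 11.3 TPM against 36.7, 36.9, 208, 57.9 and 23.3 TPM (2.38 ± 0.51, adjusted p = 0.00637). SAMD9, an antiviral factor, had 1.10, 1.24 and 1.47 TPM against 3.19, 2.69, 3.75, 2.56 and 3.62 TPM. The score of the 31 genes was 2.79, 2.64 and 2.84 in sensitive mice and 3.16, 3.15, 3.98, 3.27 and 3.20 in resistant mice, with 9-7 standing alone. B2M, beta-2 microglobulin, had 201, 182 and 214 TPM against 371, 383, 502, 384 and 353 TPM (0.99 ± 0.11, adjusted p = 1.76e-04). Of 7 class I genes 3 rose (42.9%), and 5 did with median-of-ratios scaling.

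IFI6 is shown because its 250 bases before the start (GRCh38.p14, RefSeq, chr1:27672193-27672442, minus strand) hold 3 matches to the interferon-stimulated response element, searched on both strands as GAAANNGAAA and given in capitals. They begin 156, 115 and 93 bases before the start and do not overlap. The letters stood in 13 of 21 promoters of tested interferon genes (61.9%) and in 5 of the 8 that rose (62.5%), against 2.67% of those of tested genes and 3.65% of all 27305. The shares among the genes that rose and among all tested members were thus alike.
IFI6: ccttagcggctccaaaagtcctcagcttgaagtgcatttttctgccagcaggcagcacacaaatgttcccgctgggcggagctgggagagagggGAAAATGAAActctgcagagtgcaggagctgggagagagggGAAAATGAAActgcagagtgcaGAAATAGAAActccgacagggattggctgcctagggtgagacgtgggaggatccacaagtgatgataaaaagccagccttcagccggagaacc

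**Figure D3:**
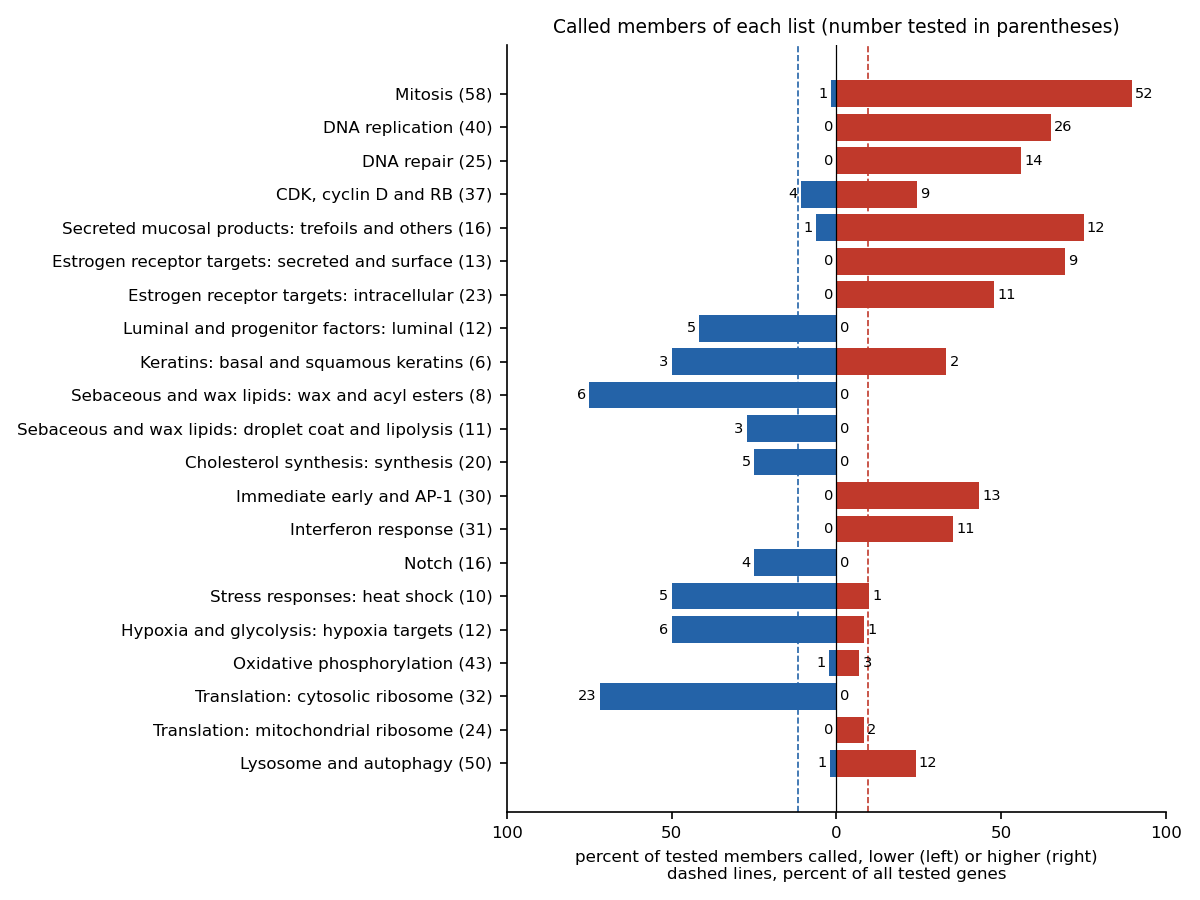
Bars give the percent of tested members of each gene list called lower (blue, left) or higher (red, right) in resistant tumors; numbers beside bars are counts and numbers in parentheses are members tested. Dashed lines mark 11.6% lower and 9.56% higher among all 14079 genes. Mitosis (52 of 58 higher) lies farthest from them. Trefoils and others (12 of 16 higher) and wax and acyl esters (6 of 8 lower) also lie far from them.

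Among 12 targets of the hypoxia response 6 fell and 1 rose, with a median of -0.66. Those shares were 50% and 8.33%, against 11.6% and 9.56% of all genes. The rise was not called without 6-4, 6-5, 6-6, 9-6 or 9-9. The sensitive mice did not share 1 level. NDRG1, a hypoxia-induced gene, had 26.9, 80.5 and 97.5 TPM against 14.7, 21.1, 21.0, 9.38 and 7.57 TPM (-2.05 ± 0.43, adjusted p = 0.00560). EGLN3, the oxygen sensor PHD3, had 5.25, 13.2 and 13.9 TPM against 4.12, 2.00, 4.00, 3.28 and 2.35 TPM (-1.44 ± 0.26, adjusted p = 0.00243). Mouse 6-4 lay nearest the resistant mice in both genes, though above all of them, and both calls were kept in every alternative. Its score for the 12 genes (4.16) was within the resistant range of 4.00 to 4.39, while 6-5 and 6-6 had 5.02 and 5.29. Vehicle mice scored 4.19 to 4.36, also within the resistant range. The cause of these differences was not tested. Of 20 genes of glycolysis 2 rose and 3 fell (10% and 15%, against 9.56% and 11.6% of all genes). The rises were 1 without 1-4, 1-9, 6-4, 6-5, 6-6, 9-3, 9-6, 9-7 or 9-9, and the falls 9 without 6-4 and 5 without 1-5. Among them SLC2A1, the glucose carrier GLUT1, rose in every alternative, from 51.5, 61.8 and 68.7 TPM to 113, 127, 107, 103 and 96.2 TPM (0.84 ± 0.12, adjusted p = 6.11e-04), and HK2, a hexokinase, fell from 33.1 to 36.1 TPM down to 17.4 to 24.6 TPM.

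Chaperones of the heat shock response fell in 5 of 10 cases and rose in 1, with a median of -0.48. Those shares were 50% and 10%, against 11.6% and 9.56% of all genes. The falls were 2 without mouse 6-4 or 6-5 and 3 without 9-6 or 9-7. HSPD1, the mitochondrial chaperonin, had 529, 480 and 481 TPM against 373, 316, 315, 329 and 351 TPM (-0.56 ± 0.07, adjusted p = 1.98e-04). BAG3, a co-chaperone of selective autophagy, was the rise, at 36 to 41.3 TPM against 62.5 to 93.6 TPM. In the Translation list 23 of 32 genes of the cytosolic ribosome fell (71.9%) and 0 rose, by a median of 0.31. This count was 4 with median-of-ratios scaling and 15 after quantile normalization, and 14, 5, 8 and 13 without mice 6-4, 6-5, 6-6 and 9-7. The mean log2 level of the 32 genes was 11.52 to 11.63 in sensitive mice. In resistant mice it was 11.24 to 11.33, within the vehicle range of 11.04 to 11.43. RPL13, RPL22 and RPL37 kept their calls throughout. RPL13 had 560, 642 and 618 TPM against 449, 438, 412, 441 and 428 TPM. Of 43 nuclear genes of oxidative phosphorylation 3 rose and 1 fell, with a median of 0.01. Those shares, 6.98% and 2.33%, were below the shares of all genes. Without mouse 6-6 1 rose, and without 6-5 0 fell.

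**Figure D4:**
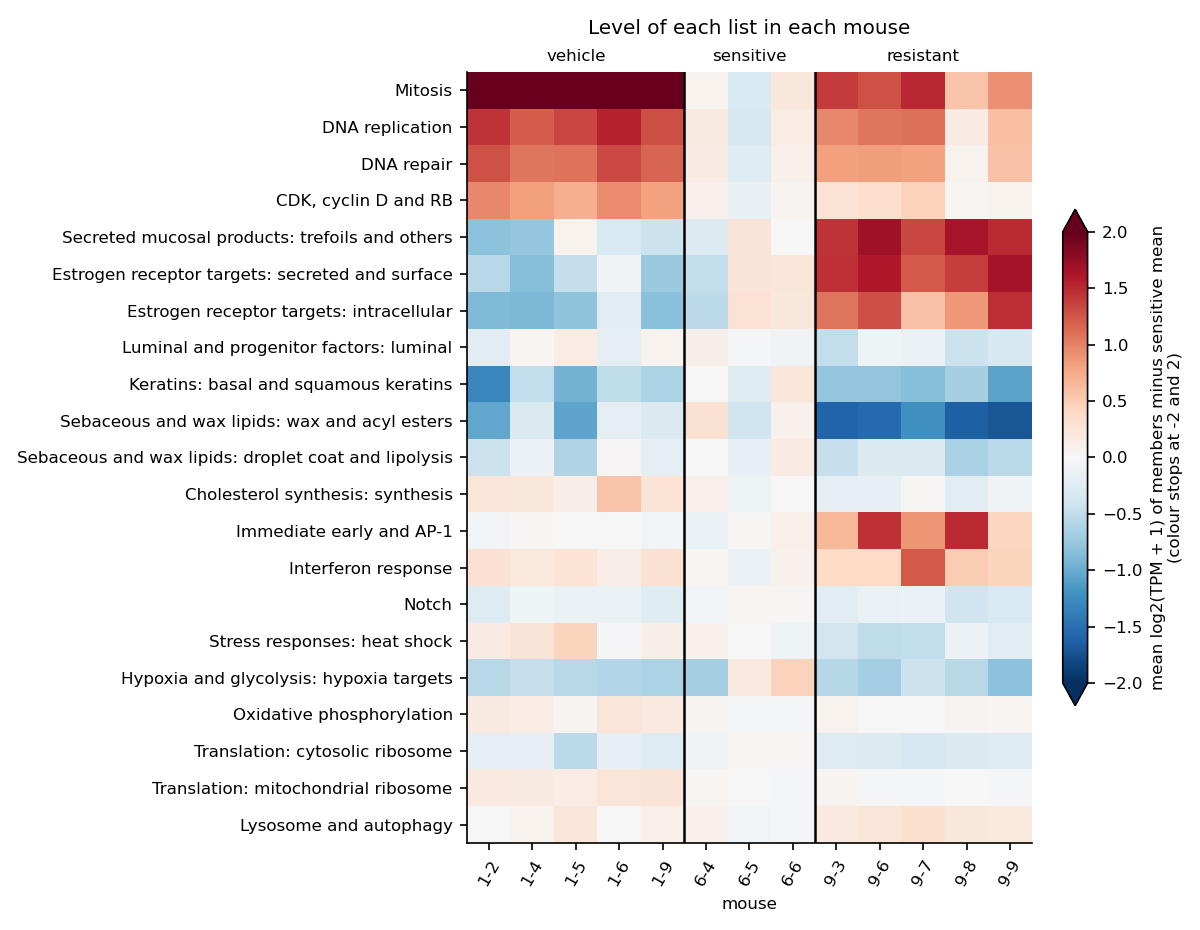
Colour gives the mean log2(TPM + 1) of a list's tested members in each of 13 mice, minus the mean of the 3 sensitive mice, with the scale stopped at -2 and 2. Mitosis is high in vehicle and between in resistant mice, wax and acyl esters are lowest in resistant mice, and the hypoxia targets of sensitive mouse 6-4 match the resistant rather than the other sensitive mice.

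Genes that handle drugs and foreign compounds moved both ways. Of 19 ABC transporter genes 5 rose (3 without mouse 6-5) and 4 fell (1 without 6-4), and of 16 conjugation and hydrolysis genes 6 rose (3 without 6-5) and 1 fell. The shares were 26.3% and 21.1% for ABC transporters and 37.5% and 6.25% for conjugation and hydrolysis, against 9.56% and 11.6% of all genes. GSTM3, a glutathione transferase, had 9.71, 7.99 and 8.72 TPM against 49.1, 84.5, 56.9, 55.8 and 67.3 TPM (2.70 ± 0.56, adjusted p = 0.00540), with vehicle mice spread from 5.15 to 67.0 TPM. UGT2B15, a glucuronosyltransferase for androgens, had 0.0400 to 0.0850 TPM against 0.525 to 1.68 TPM. No sensitive mouse reached the 1 TPM of the filter, and UGT2B15 was tested in 25 of 26 alternatives. ABCC12, an ABC transporter, had 0.960, 2.31 and 1.6 TPM against 7.41, 4.38, 4.80, 6.74 and 4.47 TPM (1.33 ± 0.25, adjusted p = 0.00283). The sole fall among 12 oxidation genes (8.33%) was CYP2B6, with 0.645 to 1.68 TPM against at most 0.110 TPM. No resistant mouse reached the 1 TPM of the filter, so its test rested on the other groups. CYP2B6 was tested in 20 of 26 alternatives. Among 14 amino acid carriers 5 rose and 2 fell (35.7% and 14.3%, against 9.56% and 11.6% of all genes). SLC1A4, a carrier of serine and alanine, was among the rises, at 57.0, 83.2 and 70.3 TPM against 198, 192, 139, 184 and 196 TPM (1.37 ± 0.14, adjusted p = 1.14e-04).

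Of 57 adhesion and matrix genes 10 rose (6 without mouse 6-4 or 6-5) and 3 fell (5 without vehicle mouse 1-5). The shares were 17.5% and 5.26%, against 9.56% and 11.6% of all genes. LAMA3, a chain of the basement membrane laminin that binds ITGA6, had 7.26 to 8.26 TPM against 23.5 to 43.9 TPM. LAMB1, a chain of other laminins, fell instead, from 3.10, 3.87 and 4.41 TPM to 1.35, 1.25, 0.960, 1.11 and 0.550 TPM (-1.24 ± 0.18, adjusted p = 6.11e-04). TIMP1, an inhibitor of matrix proteases, had 22.1, 48.5 and 68.8 TPM against 222, 273, 204, 207 and 207 TPM (2.37 ± 0.37, adjusted p = 0.00107), and TIMP3 had 24.9, 60.5 and 49.3 TPM against 120, 179, 195, 190 and 142 TPM. SERPINA5, a serine protease inhibitor, had 44.6, 19.3 and 24.0 TPM against 131, 321, 164, 155 and 236 TPM. All of these genes were without overlap between groups, which the rule for naming genes favoured. S100A8, a calcium-binding alarmin, had 30.3, 15.8 and 28.4 TPM against 2.25, 2.50, 8.96, 1.95 and 2.27 TPM (-2.62 ± 0.39, adjusted p = 8.49e-04), while S100P rose from 58.8 to 103 TPM up to 171 to 470 TPM.

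Among 50 genes of lysosomes and autophagy 12 rose and 1 fell, with a median of 0.17. Those shares were 24% and 2%, against 9.56% and 11.6% of all genes. With weights per mouse 20 rose, and 0 fell without 6-4, 6-5, 9-6 or 9-7. CTSD, cathepsin D, had 402, 533 and 534 TPM against 2118, 1977, 1568, 1429 and 3469 TPM. NPC2, which carries cholesterol out of lysosomes, had 131 to 135 TPM against 194 to 236 TPM (0.67 ± 0.10, adjusted p = 6.11e-04), and WIPI1, an early autophagy protein, 11.6 to 12.1 TPM against 21.3 to 44.0 TPM. The groups did not overlap in any of these 3.

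Changes were also laid along the chromosomes (GENCODE 29, GRCh38, 12267 tested genes with a position), in 11117 overlapping runs of 51 neighbouring tested genes, with no test, and stretches were chosen after their values were seen. Run medians went from -0.29 to 0.26. The lowest run was at chr7:144294480-156973182, with 1 gene higher and 21 lower. It lay in a stretch of 407 genes from 45104906 to 159144957 of chromosome 7 in which every run was below the median of all genes. In this stretch 93 genes (22.9%) were lower and 20 (4.91%) higher, against 11.6% and 9.56% of all genes, with a median of -0.19. Relative to the sensitive mean, the stretch's median was -0.19, -0.25, -0.22, -0.15 and -0.13 in the 5 resistant mice, -0.09 to 0.17 in the 5 vehicle mice and -0.05 to 0.06 in the sensitive mice. For the other 178 genes of chromosome 7 it was -0.01 to 0.11 in resistant mice. The stretch was bounded by where its low runs ended, which favours this difference. Over whole chromosomes, the median was -0.124 on chromosome 2 (15.4% of genes lower) and -0.118 on chromosome 7 (18.3% lower). The highest run was at chr16:46407-1793700, with 17 genes higher and 1 lower. Neighbouring runs share genes, and chromosome content was not measured.

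**Figure D5:**
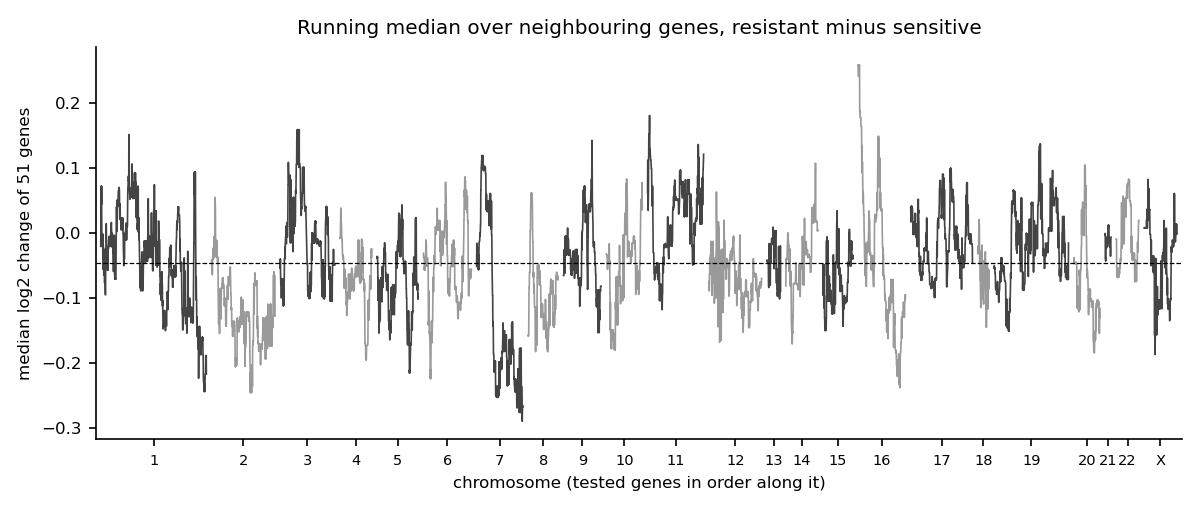
Median log2 change (resistant minus sensitive) of 51 neighbouring tested genes, against gene order along chromosomes 1 to 22 and X in alternating shades; the dashed line is the median of all genes, -0.05. The long low stretch lies on chromosome 7 and the highest point, 0.26, at the start of chromosome 16.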

How the data were processed

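Tumors of 13 mice gave 26 RNA sequencing libraries, 2 (A and B) from each mouse. The authors deposited TPM, a length-scaled share of transcripts, which summed to 999850 to 999889 in each library. RSEM, STAR, HTSeq and FastQC, and the builds GRCm38 and GRCh38, stand in the submitters' processing notes without their roles, and the handling of mouse reads is not given in the sources used. Of 30332 entries, 1 had no gene name and was left out (1.49 to 5.51 TPM). The values are not counts, so depth is unknown and no interval from counts is given.

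From the deposited TPM, log2(TPM + 1) was averaged over A and B for each mouse, which is the replicate. The pseudocount of 1 makes the log2 change of low genes smaller than that of TPM itself. The 14079 genes with a mean of at least 1 TPM in at least 3 mice were fitted with limma 3.58.1 (R 4.3.3, trend over the mean level) on all 13 mice, which share 1 estimate of spread, and resistant was compared with sensitive. Adjusted p-values are limma's, two-sided, by Benjamini-Hochberg over all tested genes, with calls under 0.05. They measure the spread between mice of one study each. Tables and plots were made with Python 3.11.15, pandas 2.3.3, numpy 2.4.6 and matplotlib 3.10.9. The fit was tested on simulated data.

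The members of the comparison and the 47 gene lists (1304 of 1305 symbols matched) were chosen with earlier results of these data known. The share of a list that was called is therefore a description and not an independent test. Genes were named by rule: CDK4, CDK6, CCND1, RB1 and MKI67, up to 6 members of a list or role by adjusted p, and the 25 largest rises and falls without overlap between groups and with a mean of at least 5 TPM in the higher group. This rule favours genes whose groups do not overlap, so lack of overlap in a named gene is not a separate finding. RefSeq promoters were matched for 93 of 119 members of the lists searched. The 26 alternatives changed the pseudocount, filter, scaling, mice, weights, libraries or error model. Some genes that the rule names are not reported here.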

Additional observations from a re-analysis of the deposited data

Results flagged for a closer look

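In 8 of the 107 genes examined, 1 of the 5 resistant mice lay far from the other 4, with a gap to its neighbour that took most of the group's range by Dixon's criterion. Chance marks about 5% of groups. Mouse 9-7 was the distant one in 6 of them and 9-8 in 2. Mouse 9-7 was high in B2M (502 TPM, others 353 to 384 TPM), in S100A8 (8.96 TPM, others 1.95 to 2.50 TPM), in SOAT1 (3.93 TPM, others 2.38 to 2.76 TPM) and in SOX2 (7.36 TPM, others 2.03 to 2.22 TPM). It was low in FHL2 (15.3 TPM, others 26.1 to 31.0 TPM) and in SLC1A4 (139 TPM, others 184 to 198 TPM). Mouse 9-8 was low in CDK4 (239 TPM, others 258 to 261 TPM) and in RB1 (18.6 TPM, others 23 to 25 TPM).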

How the results depend on the processing

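Of 107 named genes 104 were called, 101 of them in every alternative in which they passed the filter. Some were not tested in all 26, among them CYP2B6 (20 alternatives), CSF1R (21) and ACSBG1 (24). TFF1, KRT8 and NR4A1 lost the call in at least 1, and none of the 104 turned its direction. A pseudocount of 0.1 moved the log2 change of 12 of them by over 1.5 times, and one of 5 that of 36. Leaving out 1 mouse took the total of calls from 1474 (without 6-5) to 3571 (without vehicle mouse 1-5), the higher ones from 675 to 1594 and the lower ones from 690 to 1977. Weights per mouse gave 2036 higher genes, and the A libraries alone 1086 lower ones. Sign changes were met in 3 genes that were not called. CDK4 went to 0.0092 with median-of-ratios scaling. RB1 went to 0.045 with that scaling, 0.044 with quantile normalization, 0.067 with weights and 0.014 in A libraries, and ranged from -0.065 to 0.079 (without 6-4) on leaving out a mouse. ESR1 went to 0.062 with weights and ranged from -0.22 to 0.13 (without 6-4). The cause of these moves was not tested. Depth is unknown, so the noise of low values could not be set apart from the spread between mice.

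With all 26 libraries, mouse as a random effect and the letter A or B as a replicate block, 1559 genes were higher and 1909 lower, and without the block 1575 and 1947. The letters name the libraries of a mouse and pair nothing across mice. The block ended no call of a named gene.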
